A study of Mus musculus with 10 samples.

Results

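The levels of 9 genes that mark how a macrophage is activated (Nos2, Mrc1, Chil3, Retnla, Cd163, Trem2, Spp1, Apoe and Gpnmb) were examined in 10 tumors, and all 9 were found by gene symbol among the 35958 features of the count table. The tumors were WEHI-164 fibrosarcomas, a mouse line of connective tissue tumor origin, grown under the skin of wild type female BALB/c mice. A piece was taken from each tumor at surgery, before any treatment, and a hydrogel loaded with poly(I:C), a synthetic double-stranded RNA that is sensed by TLR3, was then applied to what remained. The 5 responders (tumors 5, 9, 10, 11 and 12) and the 5 non-responders (tumors 1, 2, 3, 6 and 7) therefore differed in what happened later and not in what had been given when the RNA was collected. The groups shared 1 cell line, strain, sex and treatment state, and mice of the study were bought at an age of 8 to 12 weeks. The question was whether the activation state of macrophages in the untreated tumor differed between these groups, also after the macrophage content was taken into account. The deposited values were estimated counts from poly(A) RNA, totalling 16002949 to 31160790 per responder and 19863863 to 28276142 per non-responder.

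Macrophages change their gene expression with the signals around them. Interferon gamma and microbial products induce Nos2, which makes nitric oxide from arginine, whereas interleukin 4 and interleukin 13 act through the transcription factor STAT6 and induce the mannose receptor Mrc1 and the secreted proteins Chil3 and Retnla. Tumor macrophages often do not follow this division, and many carry a program of lipid uptake and debris clearance that includes the receptor Trem2, the lipid carrier Apoe, the secreted matrix protein Spp1 and the lysosomal membrane protein Gpnmb. Adgre1 encodes F4/80, a surface protein of mouse macrophages, and served here as the measure of macrophage content.

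Every one of the 9 members passed the filter on low values, as did 15767 features in all. Levels are given as CPM, the count of a gene set to a fixed library total, after scaling by the trimmed mean of M values (TMM). Set per kilobase of the longest annotated coding transcript, the median level over the 10 tumors was highest for Spp1 at 1127 CPM per kilobase. Apoe followed with 561 CPM per kilobase, and the ranges of Spp1 and Apoe did not overlap with each other or with those of the genes below. Mrc1 with 55.0 CPM per kilobase and Gpnmb with 49.6 CPM per kilobase had overlapping ranges, as did Adgre1 with 21.0 CPM per kilobase and Trem2 with 19.1 CPM per kilobase. Nos2 at 7.82, Cd163 at 5.75 and Retnla at 3.90 CPM per kilobase also overlapped in their ranges, which for Nos2 reached that of Trem2. Chil3 was last at 0.239 CPM per kilobase, overlapping the lowest Retnla value. Chil3 and Retnla rested on few reads, with 3 to 37 and 4 to 198 rounded counts per tumor.

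The genes lie on 8 chromosomes of the mouse genome (GRCm38, GENCODE M21). Nos2 is on the plus strand of chromosome 11 (78920787 to 78960254). Cd163 (124304656 to 124330527) and Gpnmb (49036546 to 49070929) are both on the plus strand of chromosome 6. Spp1 is on the plus strand of chromosome 5 (104435118 to 104441050) and Retnla on the plus strand of chromosome 16 (48842551 to 48844461). Mrc1 lies on chromosome 2, Chil3 on chromosome 3, Apoe on chromosome 7 and Trem2 on chromosome 17, which also holds Adgre1. The counts come from whole transcripts and cannot be split into exons or UTRs.

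RefSeq promoter sequence (GRCm38.p6) was matched for 8 of the 9 members, and those of Retnla, Cd163, Spp1 and Gpnmb are shown. Spp1 and Gpnmb moved together across tumors and Cd163 opposite to Spp1, as described further on, and Retnla is shown for its STAT6 motif. Each run ends just before the RefSeq start of the gene, or before the GENCODE start where that lies further upstream, as for Retnla, and is written 5′ to 3′ on the plus strand, which is the strand of all of them. The regions are chr16:48842359-48842550 for Retnla, chr6:124304401-124304650 for Cd163, chr5:104434861-104435110 for Spp1 and chr6:49036268-49036517 for Gpnmb. Capitals mark matches, on either strand, to the STAT6 motif TTCNNNNGAA, the interferon gamma activated site TTCNNNGAA, the core of PU.1 and other ETS factors GAGGAA, the AP-1 motif TGANTCA and the MITF core CATGTG. The first and the second of these motifs differ by the number of bases in their gap.
Retnla: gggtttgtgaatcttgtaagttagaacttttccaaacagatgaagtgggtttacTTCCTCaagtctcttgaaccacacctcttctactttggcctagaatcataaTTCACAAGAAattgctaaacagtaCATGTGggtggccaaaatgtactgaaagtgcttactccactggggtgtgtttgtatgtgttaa
Cd163: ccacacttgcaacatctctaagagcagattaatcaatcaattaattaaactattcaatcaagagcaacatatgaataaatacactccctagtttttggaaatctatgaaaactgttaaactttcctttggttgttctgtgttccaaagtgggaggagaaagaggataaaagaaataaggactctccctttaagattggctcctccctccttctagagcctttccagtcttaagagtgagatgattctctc
Spp1: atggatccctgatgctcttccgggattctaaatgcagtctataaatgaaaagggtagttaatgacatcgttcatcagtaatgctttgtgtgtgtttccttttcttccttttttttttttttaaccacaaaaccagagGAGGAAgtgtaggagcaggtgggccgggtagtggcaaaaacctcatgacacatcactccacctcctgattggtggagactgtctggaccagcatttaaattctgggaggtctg
Gpnmb: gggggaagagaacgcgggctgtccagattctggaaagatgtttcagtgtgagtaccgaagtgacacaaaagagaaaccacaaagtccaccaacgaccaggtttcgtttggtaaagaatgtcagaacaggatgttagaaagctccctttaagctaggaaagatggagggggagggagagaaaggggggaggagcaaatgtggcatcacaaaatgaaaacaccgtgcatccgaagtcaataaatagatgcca
Retnla held a STAT6 match 145 bases before its RefSeq start, with a match each to the ETS and MITF cores, and Spp1 held a single match, to the ETS core. The windows of Cd163 and Gpnmb held none of the letters searched. Over 32851 RefSeq promoters the same search in 250 bases matched the STAT6 motif in 5.85%, the interferon gamma activated site in 7.02%, the ETS core in 23.3%, the AP-1 motif in 6.75% and the MITF core in 12.3%. Outside the runs shown, Chil3 held an interferon gamma activated site match 172 bases before its start, Mrc1 held 3 ETS core and 2 MITF core matches, Trem2 held an ETS core match and an AP-1 match 9 bases before its start, and Apoe held an ETS core match before the first and the third of its RefSeq starts.

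No member passed the test between responders and non-responders. Of 15767 features, 0 (0%) were called by edgeR's quasi-likelihood test at a Benjamini-Hochberg adjusted p under 0.05, 1294 (8.21%) had an unadjusted p under 0.05, limma called 0 and DESeq2 called 4, none of them a member. DESeq2 gave no adjusted p for Nos2, Chil3, Retnla, Cd163 and Trem2, so that it bears on the other 4 members only. Of the 9 members, 1 had an unadjusted p under 0.05, Nos2. For 8 members the estimate was higher in responders and for 1 lower, against 48.6% of all features with a higher estimate. The median log2 fold change was 0.06 over the members and -0.0036 over all features. The CPM of the groups overlapped for each of the 9 members, whereas they did not for 146 features (0.926%). The members' estimates shared tumors, so this count does not describe 8 separate differences. In bulk tissue, fewer cells of a type and less RNA per cell cannot be told apart.

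**Figure D1:**
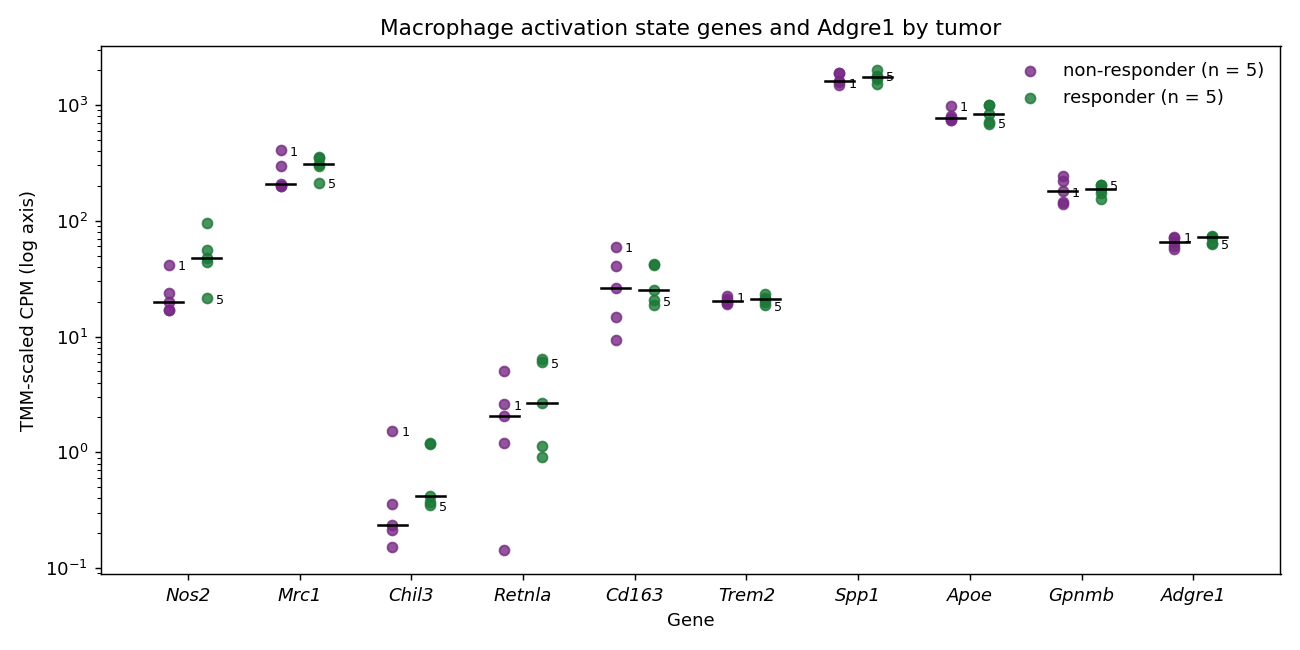
TMM-scaled CPM (log axis) of the 9 members and Adgre1 in each tumor, with non-responders in purple and responders in green (n = 5 each), black bars at the group medians and the numbers 1 and 5 beside non-responder 1 and responder 5. Nos2 stands apart by group in all but non-responder 1 and responder 5, whereas Trem2, Spp1, Apoe and Adgre1 lie in narrow bands that overlap.

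Nos2, the inducible nitric oxide synthase, had the largest fold change of the members with all 10 tumors in the fit. Its level was 41.6, 16.8, 23.9, 19.8 and 16.9 CPM in non-responders 1, 2, 3, 6 and 7. In responders 5, 9, 10, 11 and 12 it was 21.4, 56.1, 48.1, 96.2 and 44.0 CPM. Responders 9 to 12 each lay above every non-responder, while responder 5 lay among the non-responders and non-responder 1 lay just under the 4 high responders. Responders averaged 53.1 ± 27.3 CPM and non-responders 23.8 ± 10.4 CPM (SD over 5 tumors each). The log2 fold change was 1.16 ± 0.34 (SE), with an unadjusted p of 0.00493 and an adjusted p of 0.580 in edgeR's quasi-likelihood test. An exact permutation test of the Nos2 values alone, on log2(CPM + 1), gave a two-sided p of 0.0317, uncorrected for the 9 members to which it was applied, where 0.00794 is the smallest that 5 tumors against 5 can give. Leaving out responder 5 moved the log2 fold change to 1.37 ± 0.28 (edgeR adjusted p = 0.0778), and leaving out responder 11 moved it to 0.83 (adjusted p = 0.879). Nos2 was not the largest in every such fit. Without non-responder 1 it was at 1.46 and Chil3 at 1.56, and without non-responder 7 it was at 1.07 and Retnla at 1.25.

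The other genes of arginine metabolism did not share a direction. Of the 13 genes on that list, which includes importers and enzymes of polyamine and nitric oxide synthesis, 6 were higher and 7 lower, with a median log2 fold change of -0.03 and 0 called. Nos3, the endothelial nitric oxide synthase, averaged 7.72 ± 1.54 CPM among responders and 9.96 ± 1.27 CPM among non-responders (SD), a log2 fold change of -0.37 ± 0.13 (SE). Slc7a2, an importer of arginine, had a log2 fold change of 0.67 ± 0.36 (SE) and Gch1, which starts the synthesis of a cofactor of nitric oxide synthases, 0.08 ± 0.05 (SE). The adjusted p-values of Nos3, Slc7a2 and Gch1 were 0.580, 0.649 and 0.712 by edgeR.

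The classical activation list had the highest median of the activation lists. Of its 18 genes 17 passed the filter, 15 of them higher in responders and 2 lower, with a median log2 fold change of 0.43. None was called, and 7 had an unadjusted p under 0.05, all higher, against 663 of 15767 features (4.2%). Acod1, which makes the antimicrobial metabolite itaconate, averaged 19.3 ± 5.97 CPM among responders and 9.93 ± 3.48 CPM among non-responders (SD), a log2 fold change of 0.96 ± 0.26 (SE, adjusted p = 0.580 by edgeR). The chemokine Ccl5 had a log2 fold change of 1.15 ± 0.32 (SE) and the interferon-induced chemokine Cxcl10 of 0.50 ± 0.14 (SE), with the same adjusted p. Ccl5 is also made by T cells and NK cells, and Acod1, Ccl5 and Cxcl10 are not specific to macrophages. The summed level of the list was 790, 692, 900, 711 and 516 CPM in non-responders 1, 2, 3, 6 and 7 and 810, 1021, 938, 1099 and 837 CPM in responders 5, 9, 10, 11 and 12, so the groups overlapped in this sum through non-responder 3. By the mean log2(CPM + 1) of the list, responder 5 at 3.99 also lay below non-responder 1 at 4.12 and non-responder 3 at 4.18.

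Of the members induced by interleukin 4 and interleukin 13 (Mrc1, Chil3 and Retnla), Mrc1 was the most abundant. Mrc1, a receptor that takes up mannosylated glycoproteins, was at 406, 200, 199, 209 and 296 CPM in non-responders 1, 2, 3, 6 and 7. In responders 5, 9, 10, 11 and 12 it was at 213, 311, 352, 346 and 295 CPM. Non-responder 1 was the highest of all tumors and the groups overlapped over most of their range. Mrc1 split into separate sets, 4 tumors at up to 213 CPM and 6 at 295 CPM or more, and the lower set held non-responders 2, 3 and 6 with responder 5. The log2 fold change was 0.21 ± 0.20 (SE, edgeR adjusted p = 0.797).

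Chil3 and Retnla are secreted proteins that are typical of mouse macrophages exposed to interleukin 4. Chil3 was at 1.54, 0.214, 0.151, 0.361 and 0.235 CPM in non-responders 1, 2, 3, 6 and 7 and at 0.349, 0.375, 1.18, 1.20 and 0.422 CPM in responders 5, 9, 10, 11 and 12. Non-responder 1 and responders 10 and 11 were high and the other 7 tumors low, with 3 to 11 counts in each of these, and the log2 fold change was 0.53 ± 0.61 (SE, edgeR adjusted p = 0.846). Leaving out non-responder 1 moved it to 1.56 (edgeR adjusted p = 0.335), and leaving out responder 11 moved it to 0.22 (edgeR adjusted p = 0.976). Retnla was at 2.60, 0.143, 1.21, 2.08 and 5.08 CPM in non-responders 1, 2, 3, 6 and 7 and at 5.98, 1.13, 2.66, 6.44 and 0.920 CPM in responders 5, 9, 10, 11 and 12. Its levels varied 45.1-fold over the 10 tumors without following the groups, and its log2 fold change was 0.66 ± 0.65 (SE, edgeR adjusted p = 0.813). Responder 5, low in Nos2 and Mrc1, was the second highest in Retnla, after responder 11. In the annotation 41.5% of the 31-base words of Chil3 also occur in other genes (Chil4 and Chia1 among them) and 5.45% of those of Retnla, mostly in Retnlg. Chil4 had 0 or 1 counts in each tumor and Retnlg 1 to 23.

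The interleukin 4 and 13 response list held 20 further genes, 18 of them past the filter, with 13 higher and 5 lower, a median log2 fold change of 0.19 and 0 called. An unadjusted p under 0.05 was found for 4 of them, all higher, against 663 of 15767 features (4.2%). Pdcd1lg2, the gene of the PD-1 ligand PD-L2, averaged 18.0 ± 10.8 CPM among responders and 7.04 ± 5.48 CPM among non-responders (SD), a log2 fold change of 1.37 ± 0.49 (SE). The chemokine Ccl24 had a log2 fold change of 0.78 ± 0.27 (SE) and the receptor chain Il13ra1 of 0.25 ± 0.09 (SE). All of these had an edgeR adjusted p of 0.580. Il13 itself did not pass the filter.

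Cd163, the receptor that clears haptoglobin and hemoglobin complexes, had nearly equal group means and a 6.41-fold range over the 10 tumors. It was at 59.7, 9.32, 14.7, 26.0 and 40.6 CPM in non-responders 1, 2, 3, 6 and 7 and at 20.6, 18.6, 41.8, 42.3 and 25.0 CPM in responders 5, 9, 10, 11 and 12. Non-responders held both the highest and the lowest tumors, and all responders lay between them. Responders averaged 29.7 ± 11.5 CPM and non-responders 30.1 ± 20.4 CPM (SD over 5 tumors each), and the log2 fold change of -0.01 ± 0.42 (SE, edgeR adjusted p = 0.997) turned to 0.18 under limma. Of the 18 scavenger and tissue-resident genes 16 passed the filter, 10 higher and 6 lower, with a median log2 fold change of 0.12, 0 called and 2 with an unadjusted p under 0.05, both higher. Of all features 4.2% had such a p and were higher. Pf4, a chemokine found in resident macrophages and platelets, had a log2 fold change of 0.86 ± 0.31 (SE), the scavenger receptor Msr1 of 0.17 ± 0.07 (SE) and the phosphatidylserine receptor Timd4 of -0.48 ± 0.23 (SE), with edgeR adjusted p-values of 0.580, 0.591 and 0.614.

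The 4 members of the lipid-associated program, Trem2, Apoe, Spp1 and Gpnmb, had nearly equal means in the groups. Trem2, a receptor for lipids that signals through Tyrobp, was at 22.3, 19.5, 21.2, 20.4 and 19.0 CPM in non-responders 1, 2, 3, 6 and 7. In responders 5, 9, 10, 11 and 12 it was at 18.6, 21.6, 21.3, 23.5 and 19.7 CPM. The highest tumor had 1.27 times the level of the lowest, the ranges overlapped throughout, and the log2 fold change was 0.03 ± 0.07 (SE, edgeR adjusted p = 0.932).

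Apoe was at 978, 743, 808, 771 and 737 CPM in non-responders 1, 2, 3, 6 and 7 and at 705, 827, 1001, 996 and 688 CPM in responders 5, 9, 10, 11 and 12. Responders held both its lowest and its highest tumors, and the log2 fold change was 0.06 ± 0.12 (SE, edgeR adjusted p = 0.910). Spp1, which encodes osteopontin, was at 1566, 1902, 1869, 1593 and 1479 CPM in non-responders 1, 2, 3, 6 and 7 and at 1781, 2002, 1670, 1529 and 1725 CPM in responders 5, 9, 10, 11 and 12. The groups interleaved, with a log2 fold change of 0.05 ± 0.08 (SE, edgeR adjusted p = 0.905), and 14.3% of the 31-base words of Spp1 are shared with the overlapping gene model Gm42793. Gpnmb was at 179, 241, 219, 138 and 146 CPM in non-responders 1, 2, 3, 6 and 7 and at 205, 205, 188, 154 and 174 CPM in responders 5, 9, 10, 11 and 12. All 5 responders fell inside the range of the non-responders, and the log2 fold change was 0.01 ± 0.14 (SE, edgeR adjusted p = 0.997).

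Other genes of TREM2 signalling and lipid handling were measured beside these. All 21 passed the filter, 17 higher and 4 lower, with a median log2 fold change of 0.17, 0 called and 5 with an unadjusted p under 0.05 (4 higher, 1 lower). Of all features 8.21% had such a p. Cd68 is on this list and also among the macrophage content markers below. The cholesterol exporter Abca1 averaged 114 ± 20.6 CPM among responders and 81.7 ± 19.4 CPM among non-responders (SD), a log2 fold change of 0.48 ± 0.16 (SE). Tyrobp, the signalling partner of Trem2, had a log2 fold change of 0.27 ± 0.10 (SE) and the transcription factor Tfec of 0.65 ± 0.26 (SE), with edgeR adjusted p-values of 0.580 for Abca1 and Tyrobp and 0.587 for Tfec. The receptors and partners of the secreted members, 16 genes such as the integrins that bind osteopontin and the receptors that take up Apoe, had a median log2 fold change of 0.04, with 9 higher, 7 lower and 0 called. The most extreme of them by p were Tlr4 at 0.18 ± 0.09, Lrp8 at 0.13 ± 0.07 and Lrp1 at -0.20 ± 0.11 (log2 fold change ± SE), with edgeR adjusted p-values of 0.616, 0.644 and 0.658.

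**Figure D2:**
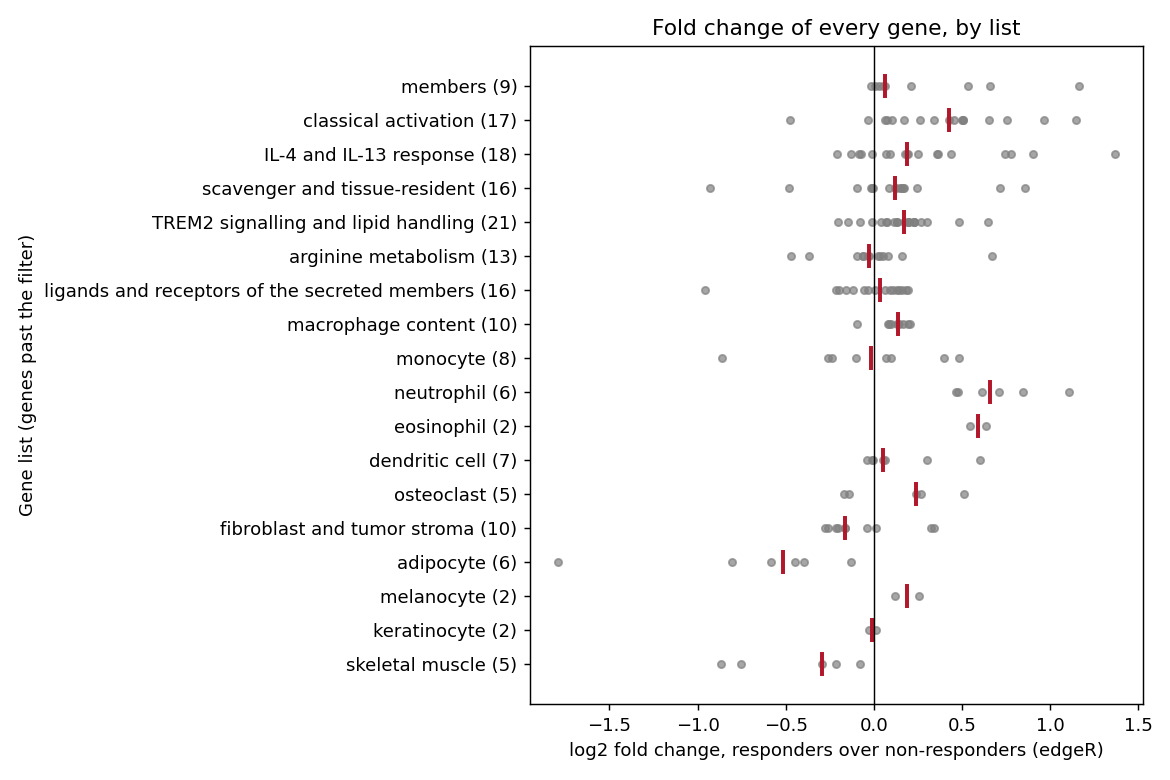
The log2 fold change (responders over non-responders, edgeR) of each gene past the filter, by list, with grey points for genes, red bars for list medians and the number of genes in parentheses. The medians run from -0.52 for the adipocyte genes to 0.66 for the neutrophil genes, and no gene shown passed the adjusted p of 0.05.

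Macrophage content by Adgre1 was slightly higher in responders without passing the test. Adgre1 was at 72.2, 60.0, 70.4, 65.6 and 57.0 CPM in non-responders 1, 2, 3, 6 and 7 and at 63.2, 71.6, 72.3, 73.1 and 64.1 CPM in responders 5, 9, 10, 11 and 12. Its range was narrow and the groups overlapped, with a log2 fold change of 0.08 ± 0.07 (SE, edgeR adjusted p = 0.785). Of the 10 macrophage content markers, which include Adgre1, the growth factor receptor Csf1r and the complement genes, 9 were higher and 1 lower, with a median log2 fold change of 0.14 and 0 called. The highest of them by p, Csf1r, had a log2 fold change of 0.15 ± 0.07 (SE), Aif1 of 0.20 ± 0.11 (SE) and Cd68 of 0.19 ± 0.11 (SE), with edgeR adjusted p-values of 0.623, 0.658 and 0.671. C1qa, at a mean of 349 CPM, was the most abundant of these markers.

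Expressed relative to Adgre1, Nos2 was high in the same 5 tumors. The effective library size of each tumor was set so that Adgre1 was equal in all, and the same test was run on the remaining 15766 features. Of these 2 (0.0127%) were called, 1056 (6.7%) had an unadjusted p under 0.05 and 22.9% had a higher estimate in responders, with a median log2 fold change of -0.09. The pair called were the granzyme genes Gzmb and Gzmc of cytotoxic lymphocytes, named after their values were seen, at log2 fold changes of 1.38 ± 0.23 and 1.53 ± 0.27 (SE, edgeR adjusted p = 0.0417 for each). Neither granzyme gene was called with limma or with Adgre1 as a covariate, where 0 features passed. In the edgeR fit scaled to Adgre1 no member was called. There 1 member had an unadjusted p under 0.05 and 4 had a higher estimate, with a median log2 fold change of -0.03. On this scale the median was 0.35 for the classical activation list and 0.10 for the interleukin 4 and 13 response list. It was 0.03 for the scavenger and tissue-resident list and 0.09 for the TREM2 signalling and lipid handling list. In that order 9, 3, 2 and 2 genes were higher at an unadjusted p under 0.05 and 0, 0, 2 and 2 lower, with 0 called.

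The CPM of Nos2 was 0.576, 0.280, 0.340, 0.303 and 0.297 times that of Adgre1 in non-responders 1, 2, 3, 6 and 7. In responders 5, 9, 10, 11 and 12 this ratio was 0.339, 0.783, 0.665, 1.32 and 0.687. Responders 9 to 12 again lay above every non-responder and responder 5 among them. Relative to Adgre1 the log2 fold change of Nos2 was 1.08 ± 0.23 (SE), with an unadjusted p of 6.6e-05 and an adjusted p of 0.102 by edgeR. The mean log2 ratio was -0.53 ± 0.70 in responders and -1.53 ± 0.42 in non-responders (SD, n = 5 each), and an exact permutation test of it gave a two-sided p of 0.0238, uncorrected for 9 members. The smaller standard error than without Adgre1 came with a prior of 17.7 degrees of freedom in place of 4.82, against 8 residual ones, so that the spread of each gene was drawn further toward that of the other features. With Adgre1 as a covariate instead, the log2 fold change of Nos2 was 0.78 (edgeR adjusted p = 0.987). Without responder 5 the adjusted p of Nos2 relative to Adgre1 was 1.75e-05 and 202 features were called, without non-responder 1 it was 0.0118 with 26 features called, and without non-responder 7 it was 0.795 with 0 called.

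The remaining members had log2 fold changes relative to Adgre1 of between -0.10 for Cd163 and 0.54 for Retnla, none with an edgeR adjusted p under 0.748. Trem2 was the member most closely tied to Adgre1, its CPM lying between 0.294 and 0.333 times that of Adgre1 in all 10 tumors. Apoe lay between 10.7 and 13.8 times, Spp1 between 20.9 and 31.7 times, Gpnmb between 2.11 and 4.01 times and Mrc1 between 2.82 and 5.62 times the CPM of Adgre1, and Cd163 between 0.155 and 0.827 times. The highest ratio was thus 1.13 times the lowest for Trem2 and 5.33 times for Cd163. For Chil3 and Retnla, which rested on few counts, it was 9.95 and 39.8 times the lowest.

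**Figure D3:**
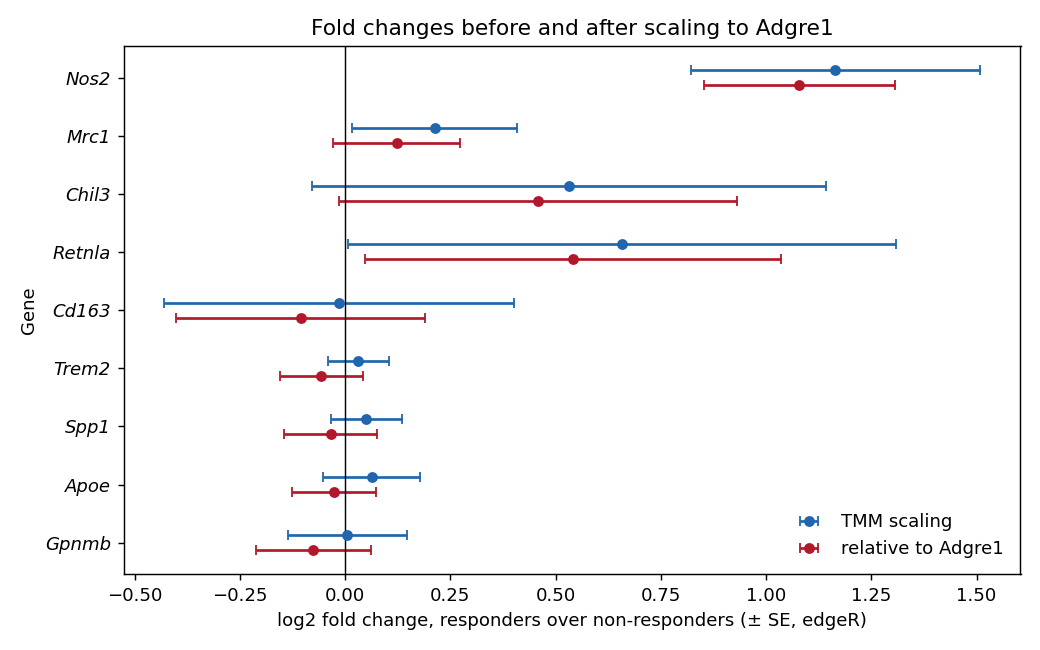
The log2 fold change of each member, responders over non-responders, with its standard error from edgeR, under TMM scaling (blue) and relative to Adgre1 (red). Nos2 lies at 1.16 and 1.08, whereas Cd163, Trem2, Spp1, Apoe and Gpnmb lie between -0.10 and 0.06 on both scales.

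The members differed in how variable they were between tumors of a group. The biological coefficient of variation, as estimated by edgeR for each feature, was 73.5% for Retnla, 62.4% for Chil3, 45.2% for Cd163 and 36.6% for Nos2. These 4 members exceeded more than 95% of the features tested, whereas Trem2 at 8.30% exceeded 42.4% of them. Spp1 at 9.81%, Apoe at 13.1%, Gpnmb at 15.8% and Mrc1 at 21.7% lay between.

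The levels of the members were then compared with each other across the 10 tumors. Mrc1 and Chil3 were left out because their tumors fell into separate sets, by a rule chosen after the values were seen, and 28 pairs were formed of the other 7 members and Adgre1. Of these, 7 had a Benjamini-Hochberg adjusted p under 0.05 for Pearson's r of log2(CPM + 1), by permutation with 100000 resamples. All values of a tumor share its library and its scaling. The deviations from the group means were also correlated, to take out the difference between the groups.

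Spp1 and Gpnmb, whose promoters are shown above, were high in the same tumors, with r = 0.85 (permutation p = 0.00253, adjusted p = 0.0236) and Spearman's rho = 0.84 (permutation p = 0.00427). On deviations from the group means r was 0.85, and without responder 9 and non-responder 7, the tumors farthest from the median of Spp1, it was 0.87. Cd163 ran opposite to Spp1, with r = -0.82 (permutation p = 0.00375, adjusted p = 0.0262) and rho = -0.85 (permutation p = 0.00283). On deviations from the group means r was -0.87, and without non-responders 1 and 2 it was -0.84. The 5 tumors highest in Cd163 and the 5 highest in Spp1 had none in common.

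Trem2 and Adgre1 had r = 0.88 (permutation p = 0.00116, adjusted p = 0.0162) and rho = 0.93 (permutation p = 0.0003), and r = 0.95 without responders 5 and 11, the tumors farthest from the median of Trem2. Trem2 and Apoe had r = 0.87 (permutation p = 0.00096, adjusted p = 0.0162) and rho = 0.85 (permutation p = 0.00300), and Apoe and Adgre1 had r = 0.80 (permutation p = 0.00785, adjusted p = 0.0366) and rho = 0.88 (permutation p = 0.00167). Without the tumors farthest from the median these were r = 0.82 and r = 0.72, and on deviations from the group means r = 0.87 and r = 0.81. Nos2 also followed the macrophage genes, with r = 0.79 to Trem2 (permutation p = 0.00719, adjusted p = 0.0366) and 0.77 to Adgre1 (permutation p = 0.0100, adjusted p = 0.0401). Spearman's rho was 0.77 (permutation p = 0.0130) to Trem2 and 0.84 (permutation p = 0.00400) to Adgre1, and Nos2 and Trem2 had r = 0.63 without responder 11 and non-responder 2 (permutation p = 0.101) and r = 0.95 on deviations from the group means. The relation of Nos2 to Adgre1 was r = 0.70 without the same tumors and r = 0.77 on deviations. With the 2 farthest tumors left out, Trem2 and Adgre1 kept an adjusted p under 0.05, and the other 6 pairs did not, at adjusted permutation p-values of 0.0809 for Spp1 and Gpnmb, 0.0948 for Cd163 and Spp1 and for Trem2 and Apoe, 0.187 for Apoe and Adgre1 and for Nos2 and Adgre1, and 0.288 for Nos2 and Trem2. The pairs of Adgre1 with Cd163 (r = 0.32, permutation p = 0.357) and Spp1 (r = 0.09, permutation p = 0.802) did not pass. Neither did those with Retnla (r = 0.07, permutation p = 0.842) and Gpnmb (r = 0.07, permutation p = 0.848). The cell source of Spp1 and Gpnmb was not tested. The tumors highest in Adgre1 (responders 10 and 11 and non-responder 1) were also the 3 highest in Cd163, Mrc1, Chil3 and Apoe. In Adgre1 these tumors led narrowly, at 72.2 to 73.1 CPM against 71.6 CPM in responder 9 and 70.4 CPM in non-responder 3.

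**Figure D4:**
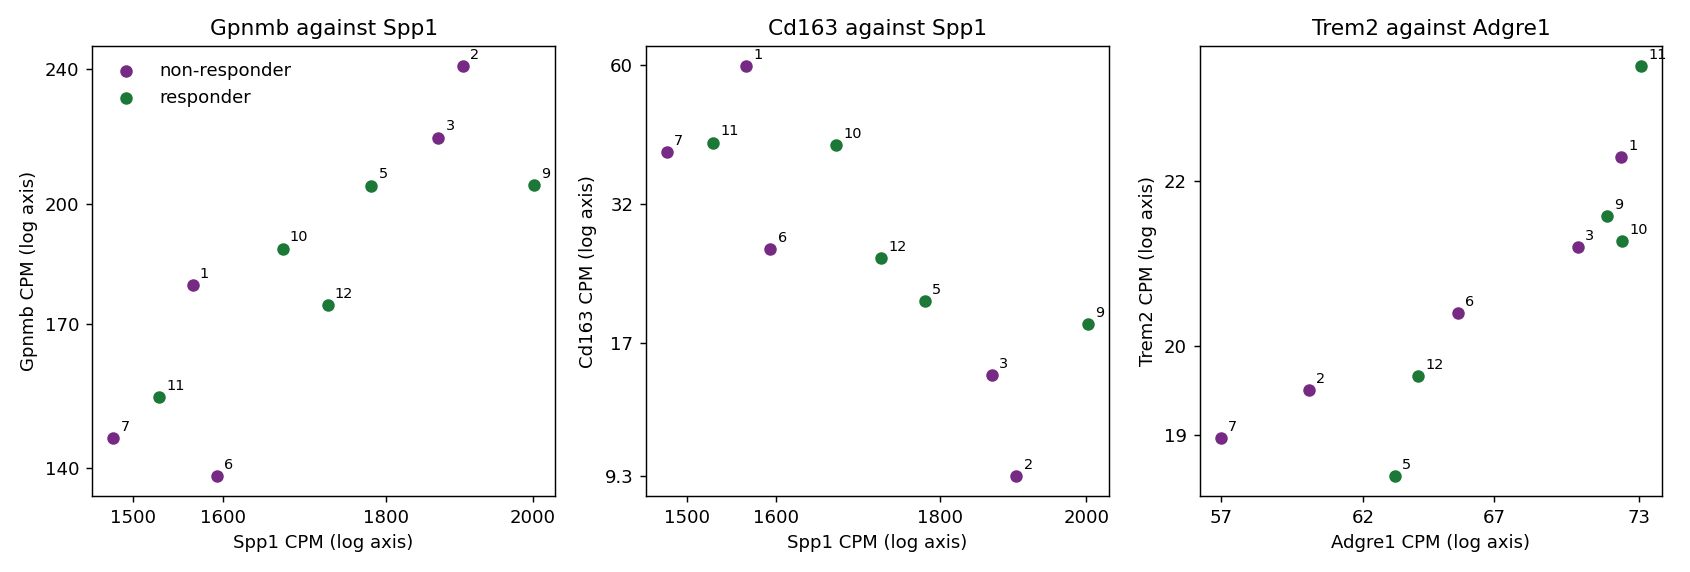
Gpnmb against Spp1, Cd163 against Spp1 and Trem2 against Adgre1, in CPM on log axes, with 1 point per tumor labelled by tumor number (purple, non-responders and green, responders). Gpnmb is higher where Spp1 is higher (r = 0.85), Cd163 is lower where Spp1 is higher (r = -0.82) and Trem2 is higher where Adgre1 is higher (r = 0.88), with both groups along each relation.

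The features most like each member were listed by Pearson's r of log2(CPM + 1) over the 10 tumors, as a description of these libraries in which many features reach a high r. For Nos2 they were Pdcd1lg2 (r = 0.99), the cytokine signalling inhibitor Cish (r = 0.97) and the T cell kinase Txk (r = 0.97). Mrc1 was most like Arap2 (r = 0.98), the platelet chemokine Ppbp (r = 0.96), which had 1 to 28 counts, and the chemokine Ccl9 (r = 0.96). Trem2 was most like the ATP-gated channel P2rx4 (r = 0.96), the chemokine Ccl4 (r = 0.95) and Dhrs3 (r = 0.95), and Adgre1 was most like Stx3 (r = 0.97), the proton pump subunit Tcirg1 (r = 0.96) and the integrin Itgam (r = 0.95).

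Spp1 was most like Nt5e (r = 0.97), the ectoenzyme CD73, with Gpcpd1 (r = 0.97) and Olfr656 (r = 0.94), which had 2 to 15 counts. Gpnmb was most like Atf7ip (r = 0.98), the ERK phosphatase Dusp6 (r = 0.97) and Pxdc1 (r = 0.96). Cd163 was most like the acute phase gene Serpina3n (r = 0.96), Rufy3 (r = 0.95) and Shfl (r = 0.94). Apoe was most like Pnpla7 (r = 0.92), Necap2 (r = 0.91) and Camta2 (r = 0.91). The least counted members were most like Ap1b1, Arhgap4 and Gata1 for Chil3 (r = 0.96 each) and Lypd1 (r = 0.92), Slc10a6 (r = 0.91) and AW551984 (r = 0.90) for Retnla.

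Several members are also expressed outside macrophages, and markers of other cells were therefore summed in each tumor. Of the 10 genes for fibroblasts and tumor stroma, which a fibrosarcoma can itself express, 3 were higher and 7 lower, with a median log2 fold change of -0.16. Col5a1 at -0.26 ± 0.07, Col1a1 at -0.28 ± 0.09 and Col3a1 at -0.20 ± 0.07 (log2 fold change ± SE) had an edgeR adjusted p of 0.580, and Col3a1 was the most abundant with a mean of 2237 CPM. Their summed level was 4809, 5087, 4686, 5761 and 4760 CPM in non-responders 1, 2, 3, 6 and 7 and 4787, 4164, 4330, 4270 and 4196 CPM in responders 5, 9, 10, 11 and 12. Responders 9 to 12 were below every non-responder in this sum, whereas responder 5 and non-responder 1, the fifth tumor high in Nos2, were not. By the mean log2(CPM + 1) of the list, in which the collagens weigh less, the groups overlapped, with all 5 responders, at 6.75 to 6.94, above non-responder 2 at 6.73 and non-responder 3 at 6.74. The part of these genes in the Nos2 values was not tested.

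Of the 10 neutrophil genes, a cell type that can also express Nos2, 6 passed the filter, all 6 higher, with a median log2 fold change of 0.66. The defining markers Ly6g, Camp, Ngp and Ltf did not pass the filter. Csf3r, the most abundant with a mean of 20.2 CPM, had a log2 fold change of 0.61 ± 0.23, S100a9 of 0.85 ± 0.39 and Retnlg of 1.11 ± 0.54 (SE), with edgeR adjusted p-values of 0.587, 0.607 and 0.619. The summed level was 34.3, 16.3, 20.5, 24.4 and 21.3 CPM in non-responders 1, 2, 3, 6 and 7 and 22.0, 28.4, 44.3, 53.9 and 29.5 CPM in responders 5, 9, 10, 11 and 12. It was highest in responders 10 and 11 and next in non-responder 1, which are also the tumors highest in Chil3, and its part in the member values was not tested.

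Monocyte genes went in both directions, with 4 of 8 higher and a median log2 fold change of -0.02. Ly6c2 had a log2 fold change of 0.48 ± 0.13, Cx3cr1 of -0.86 ± 0.34 and Ccr2 of -0.24 ± 0.11 (SE), with edgeR adjusted p-values of 0.580, 0.587 and 0.607. Their sum, in which Fn1 was the most abundant with a mean of 1224 CPM, was 2223, 2429, 2308, 1853 and 1869 CPM in non-responders 1, 2, 3, 6 and 7 and 2108, 1882, 1870, 1704 and 1890 CPM in responders 5, 9, 10, 11 and 12. Of the 5 eosinophil genes, 2 passed the filter, Siglecf at a log2 fold change of 0.64 ± 0.33 and Ccr3 at 0.55 ± 0.42 (SE, edgeR adjusted p = 0.630 and 0.751), and the granule genes Prg2 and Epx did not. The 7 dendritic cell genes had a median log2 fold change of 0.05 with 4 higher (7 without non-responder 1, non-responder 7 or responder 5), and Batf3 came first with 0.60 ± 0.23 (SE, edgeR adjusted p = 0.587), before Cd209a at 0.30 ± 0.54 and Clec9a at 0.06 ± 0.14 (SE, adjusted p = 0.908 and 0.926).

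Osteoclasts express Spp1 and Gpnmb strongly, as melanocytes do Gpnmb. Of the 7 osteoclast genes 5 passed the filter, 3 higher, with a median log2 fold change of 0.24, and Calcr was at 0 in every tumor. Ctsk, the most abundant with a mean of 12.9 CPM, had a log2 fold change of 0.27 ± 0.15, Atp6v0d2 of 0.51 ± 0.44 and Acp5 of -0.14 ± 0.14 (SE), with edgeR adjusted p-values of 0.658, 0.785 and 0.810. Of the 5 melanocyte genes, 2 passed the filter, Dct at a log2 fold change of 0.12 ± 0.14 and Pmel at 0.25 ± 0.34 (SE, edgeR adjusted p = 0.843 and 0.867), and the pigment genes Tyrp1, Tyr and Mlana did not. Keratinocyte genes passed in 2 of 5 cases, with Dsp at -0.03 ± 0.09 and Krt10 at 0.01 ± 0.15 (log2 fold change ± SE, edgeR adjusted p = 0.961 and 0.993) and Krt1 at 0 in every tumor.

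Adipocyte and skeletal muscle genes were also measured, and the source of their RNA was not tested. All 6 adipocyte genes were lower, with a median log2 fold change of -0.52, led by Lep at -1.79 ± 0.67, Plin4 at -0.45 ± 0.20 and Cfd at -0.80 ± 0.62 (SE, edgeR adjusted p = 0.580, 0.601 and 0.751). All 5 skeletal muscle genes were lower, with a median of -0.29, led by Ckm at -0.75 ± 0.31, Myh4 at -0.86 ± 0.40 and Tnnt3 at -0.29 ± 0.22 (SE, edgeR adjusted p = 0.591, 0.607 and 0.745). The summed muscle level was 171, 114, 87.9, 172 and 172 CPM in non-responders 1, 2, 3, 6 and 7 and 121, 60.4, 96.7, 177 and 75.0 CPM in responders 5, 9, 10, 11 and 12. Responder 11, the highest in Nos2, was also the highest in this sum, and the adipocyte sum in that tumor was the lowest of all at 8.91 CPM.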

How the data were processed

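RNA from 10 untreated tumors, 5 per group, was sequenced after poly(A) selection. The authors deposited estimated counts per gene row from kallisto on GRCm38, which assigns shared reads by probability, and the annotation release was not given in the sources used here. The labels gave no batch or date, and nothing says that tumors were processed in more than 1 run. The table held 36009 rows; 9580 had no gene name (1.2% to 1.49% of counts) and were kept as features, while 44 repeated names were summed. Estimated counts were rounded. The filter that the study states for its time-course samples was used, CPM above 0.366 in at least 3 tumors. edgeR 4.0.16 in R 4.3.3 was run with TMM factors, the quasi-likelihood test and Benjamini-Hochberg adjustment over all features kept, at 0.05, and again with library sizes scaled to equal Adgre1, without the sampling error of Adgre1 itself. DESeq2 1.42.0, limma 3.58.1, other scaling factors, filters, pseudocounts and the omission of each tumor were the alternatives. On simulated counts with 200 changed features edgeR called 218 features, 199 of them changed ones with the right sign, and relative to Adgre1 198, with 197 such. All simulated features had 1 biological coefficient of variation, 10.4%, and only well-counted features were changed. Nos2, Cd163, Chil3 and Retnla had 36.6%, 45.2%, 62.4% and 73.5%, so the simulation does not show how often changes in these members would be called. Correlations, exact and resampled tests used scipy 1.17.1 and numpy 2.4.6.

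The members and lists were chosen with earlier results of these data known. 1 gene of the set and 1 of the lists are not reported here. All other members and Adgre1 are named, with the 3 genes of smallest p of each other list (or every gene called) and the 3 features most like each member. Sequence words of 31 bases were compared with GENCODE M21 transcripts. Tumors were taken as separate sets where the widest gap exceeded the spread on both sides. No deposited column of sample values was left out (0).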

Additional observations from a re-analysis of the deposited data

Results flagged for a closer look

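Among 74 measures (each gene, ratio and list mean in each group of 5 tumors), 4 had a tumor far from the others of its group, where chance gives about 3.7 (1 in 20). All 4 were in non-responder 1. Its Chil3 level was 1.34 on the log2(CPM + 1) scale, where the remaining non-responders had 0.20 to 0.44. The log2 ratio of Nos2 to Adgre1 was -0.80 there, against -1.84 to -1.56. The mean log2(CPM + 1) of the interleukin 4 and 13 response genes was 4.06, against 3.56 to 3.67, and that of the osteoclast genes was 2.85, against 2.15 to 2.31. These measures share a library. Responder 5 was not set apart in any of them.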

How the results depend on the processing

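Nos2, Mrc1, Chil3 and Retnla kept a higher estimate in responders under every alternative run, on both scales, except that Chil3 did not pass the filter of CPM above 1 in at least 5 tumors and has no value there. Leaving out 1 tumor at a time gave log2 fold changes of 0.83 to 1.46 for Nos2, 0.13 to 0.43 for Mrc1, 0.22 to 1.56 for Chil3 and 0.30 to 1.25 for Retnla, and relative to Adgre1 of 0.78 to 1.32, 0.02 to 0.27, 0.18 to 1.41 and 0.20 to 1.23. The count of features called was 4 with DESeq2, all lower, and 0 to 9 with 1 tumor left out (9 without responder 5), and no member was called in these, although DESeq2 gives no adjusted p for Nos2, Chil3, Retnla, Cd163 and Trem2. Relative to Adgre1 it was 0 with limma, 0 with Adgre1 as a covariate and 0 to 202 with 1 tumor left out, and 0 to 1 members were called then (Nos2, without responder 5 and without non-responder 1). The adjusted p of Nos2 relative to Adgre1 ran from 1.75e-05 to 0.987 over these alternatives, the largest with Adgre1 as a covariate. Scaling to the mean of the macrophage markers moved the median of all features to -0.12, with Nos2 at 1.03. The sign of the flat members turned: Cd163 to 0.18 with limma at either pseudocount and on log2(CPM + 1) means, and between -0.25 and 0.39 with 1 tumor left out, -0.013 and 0.076 for Trem2, -0.0030 and 0.14 for Apoe and -0.078 and 0.12 for Gpnmb. Relative to Adgre1 Cd163 turned to 0.092 with limma and 0.11 on mean log2 ratios, Spp1 to 0.048 and Gpnmb to 0.0017 with Adgre1 as a covariate, and with 1 tumor left out the ranges were -0.33 to 0.22 for Cd163, -0.093 to 0.046 for Spp1, -0.077 to 0.015 for Apoe and -0.17 to 0.079 for Gpnmb. The cause was not tested. Of the 7 correlated pairs, 1 (Trem2 and Adgre1) had an adjusted p under 0.05 without the 2 tumors farthest from the median, where 8 remain. No paired analysis was possible because the tumor numbers are not shared between groups. Chil3 had 3 to 37 counts per tumor, which limits its precision.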
